A study of Rattus norvegicus with 10 samples.

Results

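Acetylcholine is made by choline acetyltransferase (Chat), packed into vesicles by the vesicular transporter Slc18a3 and kept in supply by the high-affinity choline transporter Slc5a7, and these genes mark cholinergic neurons. Beside the nucleus of the solitary tract (NTS), where baroreceptor afferents end in the brainstem, lies the dorsal motor nucleus of the vagus, whose cholinergic motor neurons send parasympathetic fibres to the viscera. Acetylcholine acts on nicotinic receptors, which are ion channels of 5 subunits, and on muscarinic receptors, which couple to G proteins.

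The group studied here held 10 genes: the motor markers Chat, Slc18a3 and Slc5a7, the nicotinic subunits Chrna3, Chrna4, Chrna7 and Chrnb2, the muscarinic receptors Chrm1 and Chrm2, and Ache. Its members were all probe sets whose platform annotation gives one of these as its only gene symbol. This gave 9 probe sets for 9 genes, 1 for each, of 31042 probe sets for 14217 named genes in all. In the annotation used here no probe set has Ache, the acetylcholinesterase gene, as its only symbol, so its expression was not analysed here. The NTS was taken from spontaneously hypertensive rats (SHR), an inbred strain with high blood pressure, and from Wistar-Kyoto rats (WKY), its usual normotensive control, with 5 arrays for each strain. All rats were males of 10 to 13 weeks, and no treatment is named for either strain. The design text calls an array an independent replicate while the descriptions name 5 animals for a sample, so an array may hold a pool, and p-values cover only the spread among samples as deposited.

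Values are signals of an Affymetrix array, which the authors had scaled to a common trimmed mean, and tests used log2(signal + 16). A probe set was tested if it reached the 40th percentile of the array on at least 5 of 10 arrays, and it was called at an adjusted p below 0.05 (limma, Benjamini-Hochberg over 18846 probe sets). Arrays correlated at 0.947 to 0.988. Median signals of 44.2 to 49.8 were found for SHR arrays and of 39.6 to 45.7 for WKY arrays. The ratio of the 3' to the 5' Gapdh control was 1.12 to 1.34 for SHR arrays and 1.07 to 1.1999 for WKY arrays.

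Of the 9 members, 6 passed the filter and 0 of these 6 were called, against 4.26% of all probe sets tested (2.06% higher and 2.2% lower in SHR). At an unadjusted limma p below 0.05 there was 1 of 6, Chrna7, against 21.0% of all probe sets. The strains overlapped for all 6 tested members, whereas 6.13% of all probe sets did not overlap. Of the 6 differences 5 lay above 0, as did 54.0% of all differences, and their median was 0.088 against 0.016 over all probe sets.

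**Figure D1:**
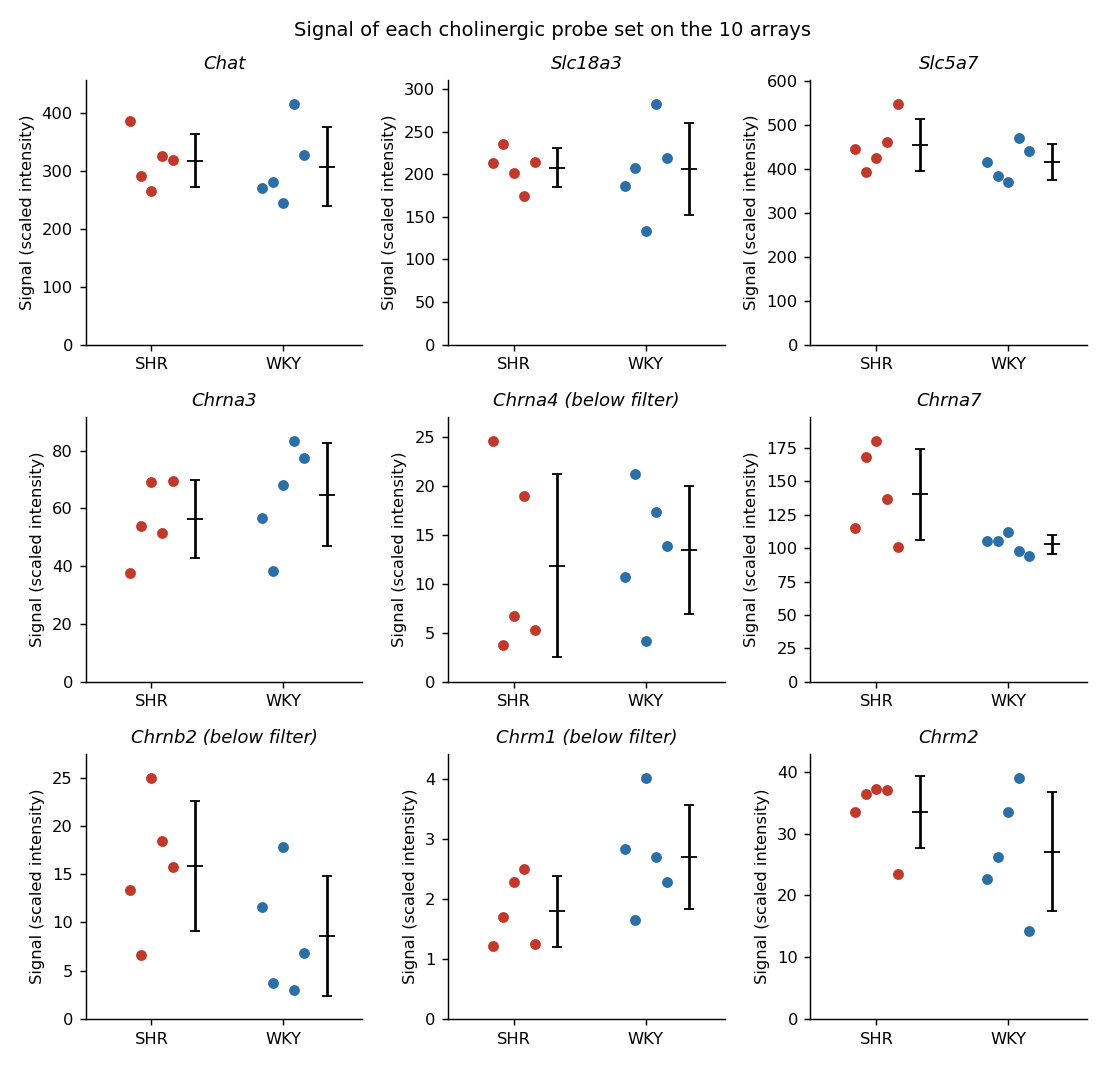
Signal of each member probe set (vertical axis, scaled intensity, starting at 0) in SHR on the left and WKY on the right of each panel. Points are the 5 arrays of a strain in replicate order and bars show mean and SD. The 5 SHR values of Chrna7 spread from 101 to 180.2, against 94.5 to 112 in WKY, and the strains overlap in every panel.

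The motor markers were well within the range of the test on every array, at or above the 40th percentile on 10 of 10. Chat, which encodes the enzyme that joins choline and acetyl-CoA, gave 387, 291, 265, 326 and 319 on the SHR arrays, against 269.8, 280.4, 244, 416 and 327 in WKY. The highest and the lowest array were both WKY, so the strains overlapped fully. Chat averaged 317 ± 45.6 in SHR and 307 ± 67.7 in WKY (SD, n = 5 each), a log2 difference of 0.057 ± 0.12 (SE; 95% interval -0.19 to 0.31; limma adjusted p = 0.828).

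Slc18a3, the vesicular acetylcholine transporter gene, had 213, 236, 201, 174 and 215 in SHR and 186, 208, 134, 283 and 219 in WKY. As for Chat, WKY 4 was the highest array and WKY 3 the lowest. Its mean was 208 ± 22.6 in SHR and 206 ± 54.1 in WKY (SD, n = 5 each), a log2 difference of 0.042 ± 0.13 (SE; 95% interval -0.24 to 0.33; limma adjusted p = 0.894).

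Slc5a7, whose transporter carries choline back into the nerve ending, had 446, 391, 424, 460.3 and 547 in SHR, against 415, 383, 369, 470.2 and 440.3 in WKY. SHR 5 was the highest array and WKY 3 the lowest, with the other values interleaved. The log2 difference was 0.12 ± 0.085 (SE; 95% interval -0.061 to 0.30; limma adjusted p = 0.446). When array median signal entered the model as a covariate it was 0.35 and passed (limma adjusted p = 0.0456), and that of Chat was 0.39 and did not (adjusted p = 0.148). Median signal was itself higher in most SHR arrays, so what the covariate takes up and the strain difference cannot be told apart here. As folds on the offset scale, the intervals without the covariate run from 0.87 to 1.24 for Chat, 0.85 to 1.25 for Slc18a3 and 0.96 to 1.23 for Slc5a7, so a fold outside these bounds is outside the interval. In tissue RNA, a change in the number of cholinergic cells cannot be told apart from a change in RNA per cell.

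Chat and Slc18a3 share a locus. In the RefSeq table of assembly GRCr8, Slc18a3 lies inside the span of Chat, on the same strand, and its start is 602 bases downstream of that of Chat. Transcripts of this overlapping pair could share sequence, and whether either probe set reads both was not tested. The promoter windows of the motor markers and of Chrna7, the member with the smallest p, are shown, since the motor markers define cholinergic neurons and Chrna7 came nearest to the threshold. Each holds 250 bases before and 50 after the RefSeq start in GRCr8, all on the minus strand: chr16:7723367-7723666 for Chat, chr16:7722765-7723064 for Slc18a3, chr9:7953460-7953759 for Slc5a7 and chr1:126249080-126249379 for Chrna7. Capitals mark matches, on either strand, to the E-box CACGTG, the GC box GGGCGG, the TATA box TATAAA and the core TGACGT of the cyclic AMP response element.
Chat: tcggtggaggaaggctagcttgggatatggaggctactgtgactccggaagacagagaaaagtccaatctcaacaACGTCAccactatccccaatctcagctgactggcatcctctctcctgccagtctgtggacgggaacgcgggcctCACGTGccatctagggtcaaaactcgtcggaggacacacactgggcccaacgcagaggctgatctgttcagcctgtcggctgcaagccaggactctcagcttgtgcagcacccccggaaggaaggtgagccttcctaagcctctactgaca
Slc18a3: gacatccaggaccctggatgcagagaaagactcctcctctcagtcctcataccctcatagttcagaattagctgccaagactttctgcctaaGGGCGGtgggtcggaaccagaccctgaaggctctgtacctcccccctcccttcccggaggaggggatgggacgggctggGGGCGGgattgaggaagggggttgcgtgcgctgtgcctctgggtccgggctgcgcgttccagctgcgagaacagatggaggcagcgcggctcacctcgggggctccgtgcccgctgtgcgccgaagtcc
Slc5a7: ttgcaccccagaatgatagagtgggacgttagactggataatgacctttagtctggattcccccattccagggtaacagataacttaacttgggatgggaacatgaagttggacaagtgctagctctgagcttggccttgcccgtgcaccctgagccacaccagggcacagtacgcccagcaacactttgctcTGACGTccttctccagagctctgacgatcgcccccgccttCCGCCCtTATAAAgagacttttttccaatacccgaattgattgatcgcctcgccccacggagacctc
Chrna7: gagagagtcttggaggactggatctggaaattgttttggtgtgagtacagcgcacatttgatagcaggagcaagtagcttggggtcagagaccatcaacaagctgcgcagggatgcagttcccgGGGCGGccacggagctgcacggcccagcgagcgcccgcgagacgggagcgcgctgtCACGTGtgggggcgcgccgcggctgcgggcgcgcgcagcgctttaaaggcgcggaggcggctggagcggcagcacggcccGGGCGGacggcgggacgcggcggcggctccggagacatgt

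No 2 of the marked matches in these 4 windows overlap each other. The window of Chat held 1 E-box and 1 TGACGT, that of Slc18a3 held 2 GC boxes, and that of Slc5a7 held a GC box, a TATAAA and a TGACGT. Chrna7 had 2 GC boxes and an E-box. Over the promoters of all 10 genes, Ache included, 8 held the GC box, 4 the E-box, 2 the TGACGT core and 1 the TATA box. Among 33469 promoters of the same length these shares were 33.1%, 6.42%, 7.94% and 14.2%. Those promoters were matched to the members in length only, not in kind of gene or base composition, and enrichment was not tested. No motif of this set was common to the windows of Chat, Slc18a3 and Slc5a7.

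Whether the motor markers varied together between arrays was examined for their 3 pairs. Over the 10 arrays the log2 level of Chat correlated with that of Slc18a3 at r = 0.70 (permutation p = 0.0249, adjusted over 3 pairs 0.0747) with Spearman's rho = 0.66 (permutation p = 0.0443, adjusted 0.0665). Without WKY 4 and SHR 1, the arrays farthest from the median of Chat, r was 0.55 (n = 8, exact permutation p = 0.151), so that relation rests in part on these arrays. Chat and Slc5a7 gave r = 0.61 (permutation p = 0.0584, adjusted 0.0877) and rho = 0.73 (permutation p = 0.0206, adjusted 0.0617), and r = 0.72 without the same arrays (n = 8, exact permutation p = 0.0382).

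Slc18a3 and Slc5a7 gave r = 0.42 (permutation p = 0.221, also after adjustment) and rho = 0.41 (permutation p = 0.249, also after adjustment). Without WKY 3 and WKY 4 their r was -0.11 (n = 8, exact permutation p = 0.797), so this relation rests on those arrays. All 3 pairs missed the threshold after adjustment, and all tests were two-sided. As deviations from the strain means, which take out any strain difference, r was 0.69, 0.62 and 0.42 for the same pairs. Such deviations of Chat, Slc18a3 and Slc5a7 also had r = -0.81, -0.54 and -0.88 with those of the median signal of the array. All 3 markers thus moved with an array-wide measure, and whether the pairs covary beyond it was not tested.

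**Figure D2:**
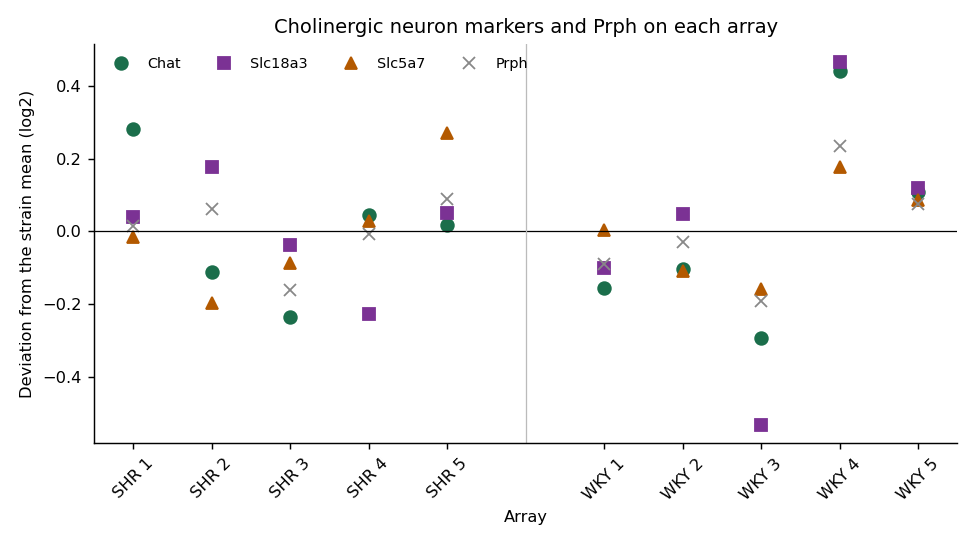
Deviation of each array from its strain mean (vertical axis, log2) for Chat, Slc18a3, Slc5a7 and the motor neuron gene Prph, with SHR arrays on the left and WKY arrays on the right. All 4 genes are above the strain mean on SHR 5, WKY 4 and WKY 5 and below it on SHR 3 and WKY 3. They lie on both sides of it on SHR 1, SHR 2, SHR 4, WKY 1 and WKY 2. Prph was picked after its values were seen, and the 8 tested motor neuron markers had a median mean r of 0.021. The deviations of Chat, Slc18a3 and Slc5a7 had r = -0.81, -0.54 and -0.88 with those of the median signal of the array.

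The 8 genes whose deviations from the strain means followed the 3 motor markers most closely were Nploc4, Mpi, Ntng1, Fdft1, Nxt1, Hipk1, Scrn1 and Nudt11. Their mean r with the motor markers over the 10 arrays was 0.82 for Nploc4, which encodes a cofactor of the segregase p97, and 0.81 for Mpi, the mannose phosphate isomerase gene. It was 0.80 for Ntng1, which encodes the axon guidance protein netrin-G1, and 0.80 for Fdft1, the squalene synthase gene, and 0.79 or 0.80 for the other 4. Over 10662 other genes the mean r had a 99th percentile of 0.68 and a highest value of 0.82, so these are the upper end of a broad distribution of genes on the same 10 arrays. Of these 8, 0 were called between strains, against 3.97% of 10668 genes, with adjusted p from 0.159 to 0.910 in limma.

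Of 17 markers of brainstem motor neurons, 8 were tested, and 0 of them were called (6 above 0, median log2 difference 0.11). Of all 10668 genes, by their brightest tested probe set, 3.97% were called and 5389 had differences above 0. Those with the smallest adjusted p were the heavy neurofilament gene Nefh (0.22 ± 0.075 SE; limma adjusted p = 0.108), Chodl (0.34 ± 0.13; 0.128) and the GDNF co-receptor gene Gfra1 (0.22 ± 0.086; 0.145). Prph, the gene of the intermediate filament peripherin in motor and sensory neurons, was picked after its values were seen. It had 821, 848, 724, 807 and 865 in SHR, against 731, 763, 680.05, 919 and 820.5 in WKY, and its mean r with the motor markers was 0.77, rank 16 of 10662 genes. The other 7 motor neuron markers ran from -0.59 for Gfra1 to 0.28 for Ret, the GDNF receptor kinase gene, and the median of the 8 was 0.021. Isl1 and Calca, which mark motor neurons, had probe sets that did not pass the filter.

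Of the 4 nicotinic receptor genes 2 were tested. Chrna7, the subunit of the homomeric receptor that binds alpha-bungarotoxin, gave 115, 168, 180.2, 136 and 101 on the SHR arrays, against 105, 105.3, 112, 97.6 and 94.5 in WKY. Of the SHR arrays 4 of 5 lay above every WKY array, and SHR 5 lay among the WKY arrays. Chrna7 averaged 140.2 ± 33.8 in SHR and 103 ± 6.85 in WKY (SD, n = 5 each), a log2 difference of 0.37 ± 0.12 (SE; 95% interval 0.11 to 0.63) or 1.29-fold. It missed the threshold after adjustment (limma adjusted p = 0.0964) and passed without SHR 5 (0.0226), and across its alternatives the adjusted p ran from 0.0226 to 0.929.

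The level of Chrna7 followed the median signal of the array closely. Across the 10 arrays r was 0.89 (permutation p = 0.00073, adjusted over 6 members 0.00438) and rho was 0.99 (permutation p = 4e-05, adjusted 0.00024), and without WKY 5 and WKY 4 r was 0.98 (n = 8, exact permutation p = 7.44e-05). These permutations shuffled arrays without regard to strain, so a strain difference in both measures enters their p. Deviations from the strain means gave r = 0.79, for which no p was computed. SHR 3 and SHR 2, which had the highest Chrna7 signals, also had the highest median signals (49.8 and 49.4) and the highest Gapdh 3' to 5' ratios (1.34 and 1.203) among SHR arrays. Among WKY arrays, WKY 3 was highest in Chrna7 signal, median signal (45.7) and Gapdh ratio (1.1999). WKY 4 and WKY 5, lowest in Chrna7, had Gapdh ratios of 1.11, above those of WKY 1 and WKY 2 (1.07 and 1.08). The beta-actin ratio was 3.92 on SHR 3 but 2.97 on SHR 2, below 3.25 on SHR 4 and SHR 5. The hexokinase ratio was 17.7 on SHR 3 and 20.2 on SHR 2, above the other SHR arrays, but highest of all, at 21.3, on WKY 5, which had the lowest Chrna7 signal. With median signal as a covariate the log2 difference of Chrna7 was 0.057 (limma adjusted p = 0.929), and without SHR 2 and SHR 3 it was 0.16 (adjusted p = 0.457). An r at least as high was found for 1.59% of the 18846 probe sets tested. Median signal is itself higher in most SHR arrays, so what the covariate takes up and the strain difference cannot be told apart.

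**Figure D3:**
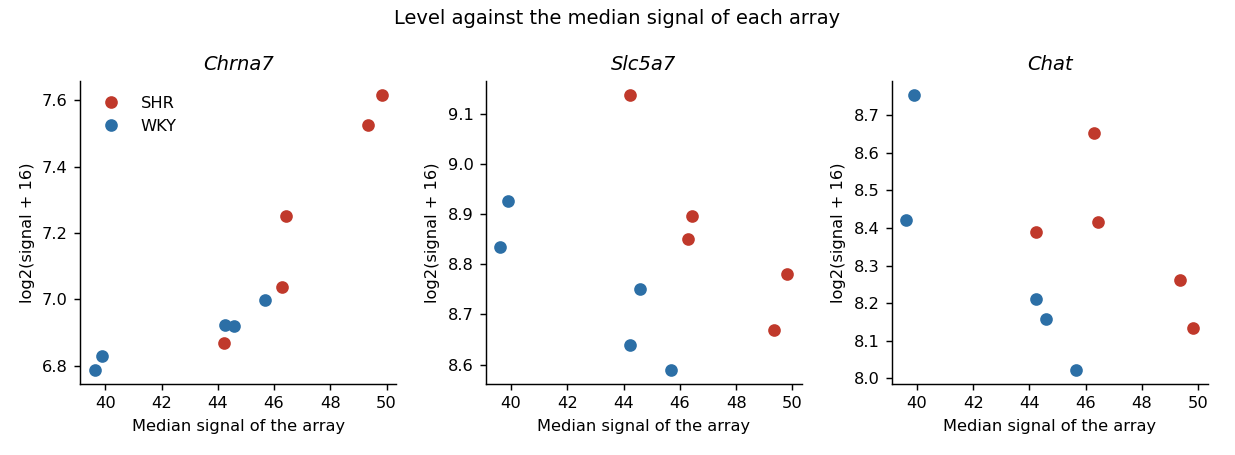
Log2 level of Chrna7, Slc5a7 and Chat (vertical axes, log2(signal + 16)) against the median signal of each array (horizontal axes, scaled intensity), with SHR and WKY arrays in separate colours. Chrna7 rises with median signal over both strains (r = 0.89), while Slc5a7 (r = -0.32) and Chat (r = -0.49) do not. As deviations from the strain means, r was 0.79 for Chrna7, -0.88 for Slc5a7 and -0.81 for Chat.

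Over the 10 arrays, the other 5 tested members had no such relation past the threshold. Their r with median signal ran from -0.49 for Chat to 0.55 for Chrm2, with permutation p of 0.102 or more and adjusted p of 0.298 or more. Without WKY 5 and WKY 4, r was higher for Chrm2, at 0.81 (n = 8, exact permutation p = 0.02, not adjusted). For Slc18a3, Chrna3, Chat and Slc5a7 it was 0.25, 0.21, -0.088 and -0.22, against -0.33, -0.41, -0.49 and -0.32 over all arrays. The negative relations rest in part on those arrays, and that of Chrm2 does not. The deviations of Slc5a7 and Chat from their strain means had r = -0.88 and r = -0.81 with those of median signal, opposite in sign to Chrna7. For the deviations of Slc18a3, Chrna3 and Chrm2 it was -0.54, -0.34 and 0.39.

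Chrna3, the ligand-binding subunit of the ganglionic nicotinic receptor, had 37.7, 54.0, 69.1, 51.4 and 69.5 in SHR, against 56.7, 38.3, 68.0, 83.3 and 77.4 in WKY. The lowest arrays of both strains were nearly equal, and WKY 4 and WKY 5 were the highest. The log2 difference was -0.15 ± 0.16 (SE; 95% interval -0.49 to 0.20; limma adjusted p = 0.642). Chrna3 stands between Chrna5 and Chrnb4 as consecutive protein-coding genes in GRCr8. Chrna5 did not pass the filter and Chrnb4, a partner subunit of Chrna3, had a log2 difference of 0.31 ± 0.14 (SE; limma adjusted p = 0.231).

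Chrna4 and Chrnb2, which together form the main high-affinity nicotine receptor of the brain, were too dim to test, with 0 of 10 arrays at the 40th percentile for each. Chrna4 had 24.6, 3.72, 6.71, 19.0 and 5.34 in SHR and 10.8, 21.2, 4.17, 17.4 and 13.9 in WKY. Chrnb2 had 13.4, 6.63, 25.0, 18.5 and 15.8 in SHR and 11.6, 3.73, 17.8, 2.95 and 6.88 in WKY. The highest array was SHR for both genes, the lowest was SHR for Chrna4 and WKY for Chrnb2, and the strains overlapped. In the fit of all 31042 probe sets without the filter, where 2.18% were called, the log2 difference was -0.11 ± 0.22 for Chrna4 (SE; limma adjusted p = 0.822) and 0.38 ± 0.18 for Chrnb2 (adjusted p = 0.294).

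Of the muscarinic receptors, Chrm2, the receptor that slows the heart and acts as an autoreceptor on cholinergic terminals, passed the filter narrowly. Its signal reached the 40th percentile on 4 SHR and 2 WKY arrays. It had 33.5, 36.5, 37.3, 37.0 and 23.5 in SHR, against 22.6, 26.2, 33.5, 39.0 and 14.2 in WKY, with the highest and lowest arrays both WKY. The log2 difference was 0.22 ± 0.17 (SE; 95% interval -0.13 to 0.57; limma adjusted p = 0.465). Chrm1, the receptor of forebrain neurons that couples to phospholipase C, reached the 40th percentile on 0 of 10 arrays. Its signals were 1.23, 1.70, 2.29, 2.50 and 1.25 in SHR and 2.83, 1.65, 4.02, 2.70 and 2.29 in WKY, far below the offset of 16, and without the filter its log2 difference was -0.071 ± 0.064 (SE; limma adjusted p = 0.587).

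The motor markers were set against the receptors as the mean log2 level of Chat, Slc18a3 and Slc5a7 minus that of Chrna3, Chrna7 and Chrm2 on each array. A level of one probe set cannot be compared with that of another, so only the strain difference of this contrast can be read. The contrast was 2.31, 1.85, 1.64, 1.94 and 2.26 in SHR, against 2.06, 2.19, 1.61, 2.22 and 2.29 in WKY. It averaged 2.00 ± 0.28 in SHR and 2.08 ± 0.27 in WKY (SD, n = 5 each), so its strain difference of -0.076 was below the spread between arrays of a strain. The motor markers alone differed by 0.073 and the tested receptors by 0.15 on the log2 scale. Deviations of the motor mean from the strain means had r = -0.54 with those of Chrna7, 0.24 with those of Chrna3 and -0.084 with those of Chrm2, over 10 arrays that share scaling and RNA.

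Among further genes of cholinergic transmission, Colq was higher in SHR. It was the 1 call among 19 tested genes of 4 pathway lists, against 3.97% of 10668 genes represented by their brightest tested probe set (1.67% higher and 2.31% lower in SHR). Colq encodes the collagen-like tail that anchors acetylcholinesterase in the basal lamina of the neuromuscular junction. It gave 44.6, 41.1, 50.8, 52.2 and 39.6 on the SHR arrays, against 33.4, 34.0, 25.3, 24.4 and 23.2 in WKY, so all SHR arrays lay above all WKY arrays. The log2 difference was 0.49 ± 0.13 (SE; limma adjusted p = 0.0371), or 1.40-fold on the offset scale. It reached the 40th percentile on 5 SHR arrays and 2 WKY arrays, so the SHR arrays alone carried it through the filter, and it did not pass the filter at the 60th percentile. The call was lost in 11 of 21 alternatives: without SHR 1, SHR 2, SHR 3, SHR 4, WKY 3, WKY 4 or WKY 5 (limma adjusted p from 0.0357 to 0.105 over all 10 arrays left out in turn), without SHR 2 and SHR 3 together (0.101), with quantile normalization (0.097), with no filter (0.0641) and with the median-signal covariate (0.442).

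Of 12 other nicotinic subunits 3 were tested, all with differences above 0 and 0 called (median 0.36, against 0.002 over all genes). Chrna2, a subunit of interneurons in other brain regions, had 51.1, 43.8, 41.5, 33.1 and 43.3 in SHR, against 24.7, 33.9, 27.0, 17.6 and 26.9 in WKY, and 1 SHR array lay within the WKY range. Chrna2 reached the 40th percentile on 4 SHR arrays and 2 WKY arrays, so it passed the filter mainly on SHR arrays. Its log2 difference was 0.48 ± 0.14 (SE; limma adjusted p = 0.0563), and that of Chrnb1, the beta subunit of muscle, was 0.36 ± 0.15 (adjusted p = 0.167). The highest WKY signal of Chrnb1, 29.996, was below the 40th percentiles of WKY 1, WKY 2 and WKY 3 (30.7, 30.9 and 32.0). Chrnb1 thus also passed the filter mainly on SHR arrays. The signs and the median of this list are therefore not free of the filter. Colq, Chrna2, Chrnb1, Chrnb4 and Chrm2 all had mean log2 levels between 5.5 and 6. In that band 70.6% of 3845 probe sets had differences above 0, with a median of 0.12, whereas the median was -0.018 between 7 and 8, where Chrna7 and Slc18a3 stood, and -0.045 between 8 and 9, where Chat and Slc5a7 stood.

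**Figure D4:**
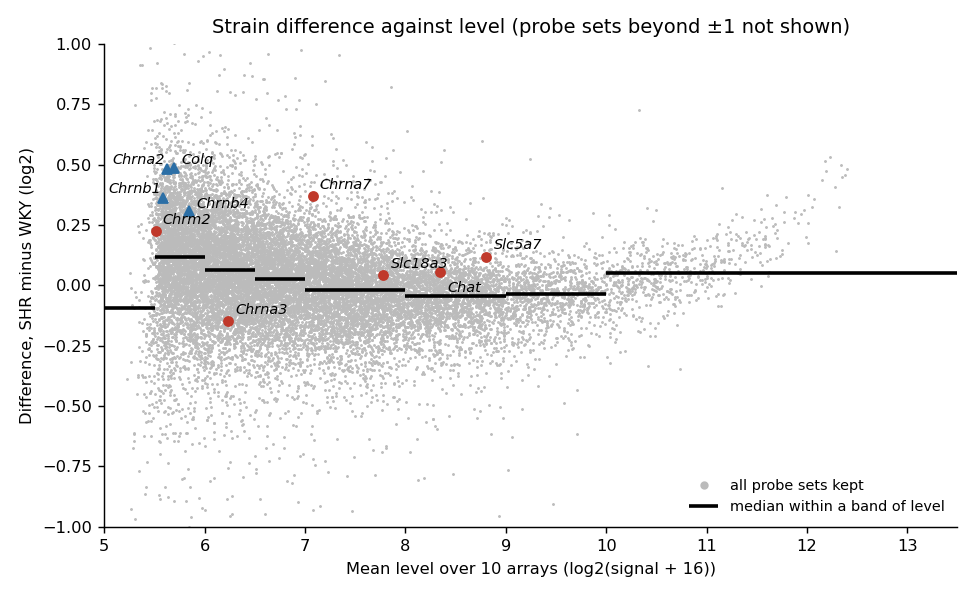
Log2 difference, SHR minus WKY (vertical axis), against mean log2 level over the 10 arrays (horizontal axis) for the probe sets tested, with members as circles and 4 pathway genes as triangles. Black lines are medians within bands of level, which lie at -0.092 below 5.5, at 0.12 from 5.5 to 6, at -0.045 from 8 to 9 and at 0.051 above 10.

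Both tested muscarinic receptors outside the group had differences above 0. Chrm3, which couples to phospholipase C, gave 0.070 ± 0.094 and Chrm5 gave 0.42 ± 0.26 (SE; limma adjusted p = 0.712 and 0.367). Of 12 genes of choline supply, acetylcholine breakdown and anchoring, 9 were tested with 1 higher, Colq, and 0 lower (median -0.027). Acly, the ATP citrate lyase that makes acetyl-CoA, differed by -0.027 ± 0.056 and the choline kinase gene Chka by 0.011 ± 0.063 (adjusted p = 0.828 and 0.943). The choline transporter gene Slc44a1 differed by -0.12 ± 0.062 (adjusted p = 0.260), and 2 dimmer probe sets of it by 0.29 and -0.012. Of 8 genes of nicotinic receptor chaperones and modulators 5 were tested and 0 called (median -0.038). Tmem35a, the chaperone NACHO, differed by -0.040 ± 0.093, Ly6h by 0.15 ± 0.070 and the prototoxin gene Lynx1 by 0.11 ± 0.073 (adjusted p = 0.846, 0.237 and 0.389). A dimmer probe set of Lynx1 differed by -0.090 (adjusted p = 0.482).

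**Figure D5:**
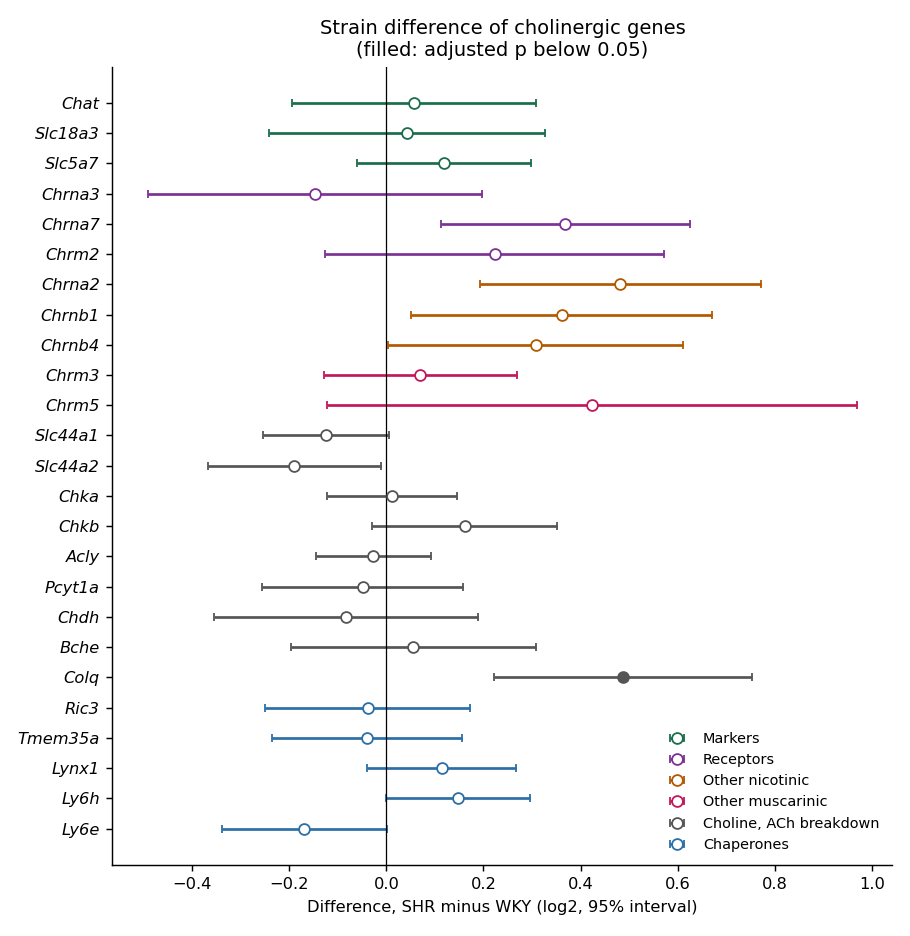
Log2 difference, SHR minus WKY, with its 95% interval (horizontal axis) for the 6 tested members and the 19 tested genes of the 4 pathway lists (rows, coloured by list). Colq alone is filled, the mark of an adjusted p below 0.05, at 0.49.

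Markers of other cells that a dissection could hold are given beside these values, and their part in them was not tested. Of all 10668 genes, by their brightest tested probe set, 1.67% were called higher and 2.31% lower in SHR, and 5389 had differences above 0. Of NTS and area postrema markers, 8 of 12 were tested, with Prlh lower in SHR (538 ± 34.4 in SHR and 735 ± 165 in WKY, SD, n = 5 each; limma adjusted p = 0.0379) and 0 higher. Dbh and Gcg differed by -0.27 and -0.50 (adjusted p = 0.114 and 0.184). Of 12 tested microglia markers 5 were lower, led by Lyz2, C1qa and Aif1 (-0.40, -0.42 and -0.52), though a dimmer probe set of Aif1 gave 0.51 and was not called. Of 5 tested choroid plexus markers 2 were higher, Enpp2 and Sostdc1 (0.28 and 0.47). Ttr, of the same list, differed by 0.068 and was not called (limma adjusted p = 0.930). It averaged 58.1 ± 20.4 in SHR and 67.0 ± 66.0 in WKY (SD, n = 5 each), with the highest array, at 182, in WKY. Sostdc1 had low signals, 36.8 to 54.6 in SHR and 27.2 to 33.3 in WKY. The 40th percentiles were 31.3 to 35.9 and 26.3 to 32.0, so the SHR arrays alone carried Sostdc1 through the filter. Among 11 general neuron markers, 6 of them above 0, Snap25 was higher (0.33). Gad1 and Slc32a1 had differences of -0.30 and -0.26 and were not called (limma adjusted p = 0.0619 and 0.068). Among 7 oligodendrocyte markers Mobp was lower (-0.34; its dimmer probe sets gave -1.41 and -0.022). Mbp, the 1 of these 7 above 0, differed by 0.28 (limma adjusted p = 0.0992). The 7 astrocyte markers had 0 calls. The deviations of general neuron markers had a median mean r of 0.39 with those of the motor markers, with 9 of 11 above 0, and those of oligodendrocyte markers -0.36, with 0 of 7 above 0.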

How the data were processed

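Per the labels' protocols, total RNA from NTS tissue was amplified (MessageAmp II) before hybridisation to Affymetrix arrays with 1 colour. The authors deposited a linear signal intensity per probe set and array; the submitters' processing notes name GCOS 1.2. Its background and detection settings: not given in the sources used here. With 2% trimmed at each end, every deposited array had a mean of 100.02 to 100.03.

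Arrays were grouped by strain from their titles, and the unnumbered one of each strain is called 1. The members and lists were chosen with earlier results of these data known. Tests excluded 57 control probe sets. A linear model of strain alone was fitted to log2(signal + 16) of 18846 of 31042 probe sets in limma 3.58.1 (R 4.3.3, eBayes with an intensity trend). The model was checked on simulated data. Symbols are those of the platform annotation, where 20826 probe sets have 1 symbol, 436 several and 9780 none. A gene in a list is represented by its brightest tested probe set. Correlations used 100000 permutations, or all arrangements of 8 or 9 arrays (scipy 1.17.1). Promoters are RefSeq's, matched by symbol for all 10 genes.

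The genes named were the members, the pathway genes that passed, up to 3 others of each pathway list by signal, up to 3 of each marker list by adjusted p (passing or not), and the 8 genes most like the motor markers. Prph, Ret, Ttr and genes below the filter were named after their values were seen. Alternatives were other scalings, offsets and filters, other eBayes settings, weights for arrays, a replicate block, the median signal as a covariate and leaving out arrays. The relation to median signal and the bands of level were added after seeing the data. No batch label was used here.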

Additional observations from a re-analysis of the deposited data

Results flagged for a closer look

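Of 20 sets of 5 arrays checked for an array far from the others (9 probe sets and the contrast of motor markers against receptors, in each strain), 1 was found, and chance marks about 1 set in 20. Chrm2 had a signal of 23.5 on SHR 5, whereas the other 4 SHR arrays had 33.5 to 37.3.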

How the results depend on the processing

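The count of called members was 0 in all alternatives except 3. It was 1 with the replicate block (Chrna7), 1 with the median signal as a covariate (Slc5a7), and it ran from 0 to 1 when 1 array was left out, being 1 without SHR 5 (Chrna7, log2 difference 0.47, limma adjusted p = 0.0226). With the replicate block the log2 difference of Chrna7 was 0.37 (limma adjusted p = 0.0422) and 1214 probe sets passed, against 803 without it. Same-numbered arrays had correlations of deviations of 0.049, 0.14, 0.13, 0.038 and 0.28, which are not all over 0.1, and no label ties the numbers to a shared batch, so the numbers were not taken as pairs. As a hint from the data, 6 of 10 arrays correlated best with their own number. The count over all probe sets was 207 with the covariate, 495 without SHR 2 and SHR 3, and ran from 450 to 945 with 1 array left out. It was 510, 452 and 450 without SHR 2, WKY 4 and WKY 5.

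The small differences of Chat and Slc18a3 had no settled sign. With 1 array left out they ran from -0.016 to 0.17 and from -0.091 to 0.16, and Slc18a3 was -0.0039 without SHR 2 and SHR 3. Chrna3 was 0.034 with the covariate, and from -0.28 to -0.045 with 1 array left out. Slc5a7, Chrna7 and Chrm2 stayed above 0 in every alternative that gave a value, from 0.051 to 0.35, 0.057 to 0.47 and 0.042 to 0.36. Chrna3 and Chrm2 did not pass the filter at the 60th percentile. The contrast of motor markers against receptors ran from -0.19 to 0.096 over 16 alternatives, and from -0.19 to 0.015 with 1 array left out. Each tested member had 1 probe set, so the mean over probe sets equals the reported value.

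The r of Chat with Slc18a3 was 0.81 without SHR 2 and SHR 3 (exact permutation, adjusted p = 0.04) and 0.52 to 0.76 with 1 array left out. It passed without SHR 2 or SHR 4 (exact permutation, adjusted p = 0.0397 and 0.0351). That of Chat with Slc5a7 was 0.50 to 0.81 and passed without SHR 5 (exact permutation, adjusted p = 0.0256), and that of Slc18a3 with Slc5a7 was 0.11 to 0.54. The median of the astrocyte markers was -0.055 with quantile normalization against 0.061, and that of the general neuron markers -0.018 against 0.063. The causes of these changes were not tested. Precision is limited by having 5 arrays a strain, and dim probe sets were not judged against background.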
